A study of Mus musculus with 8 samples.

Results

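The miR-17-92 and miR-106b-25 clusters hold 9 miRNAs of the mouse array used here. They were chosen by name alone among its 567 mouse miRNAs: mmu-miR-17, miR-18a, miR-19a, miR-19b, miR-20a and miR-92a for the miR-17-92 cluster, and mmu-miR-106b, miR-93 and miR-25 for the miR-106b-25 cluster. Liver miRNA was measured in adult male C57BL/6J mice that received CCL4 (carbon tetrachloride, a liver toxin whose repeated use gives fibrosis) dissolved in olive oil, or olive oil alone, by intraperitoneal injection, 2 doses weekly at first and a single weekly dose after week 4. There were 5 arrays of CCL4 mice, 1 at week 4, 2 at week 6 and 2 at week 8, and 3 arrays of control mice given olive oil, 1 at each of weeks 4, 6 and 8. The sources do not say whether an array holds RNA of 1 mouse or of a pool, so p-values measure the spread between these arrays, which may be technical. All 8 arrays lay on 1 slide read in 1 scan.

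The miR-17-92 cluster is a set of miRNAs cut from a single primary transcript, which Myc and E2F factors are known to induce in dividing cells. The miR-106b-25 cluster is its paralog and lies within an intron of Mcm7, a gene for a subunit of the helicase that opens DNA at replication. Members of both clusters are known to restrain inhibitors of the cell cycle and inducers of cell death, among them p21 and Bim, and hepatocytes enter the cell cycle when the liver is injured. A miRNA recognises its target mRNA mainly through its seed, bases 2 to 8 from the 5′ end, so members that share a seed are expected to share many targets.

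The mature sequences show why members of different clusters are grouped together. They are printed 5′ to 3′ from RefSeq (GRCm38.p6) with the seed in capitals, and all 9 members had an entry. The array names give no arm for most members. The arm shown is the one whose 3′ end had the same spacing to its neighbours as the probes had, which held for 6 of 6 miRNAs of the first cluster and 3 of 3 of the second. The 4 members with the seed AAAGUGC come from both clusters:
mmu-miR-17: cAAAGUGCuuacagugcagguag
mmu-miR-20a: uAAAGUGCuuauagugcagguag
mmu-miR-106b: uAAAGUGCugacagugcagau
mmu-miR-93: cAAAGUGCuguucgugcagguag
mmu-miR-18a has the seed AAGGUGC, which no other member holds:
mmu-miR-18a: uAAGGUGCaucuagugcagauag
miR-19a and miR-19b share GUGCAAA and differ at 1 base, U11C, counted from the 5′ end with the base of miR-19a first:
mmu-miR-19a: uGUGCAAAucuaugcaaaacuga
mmu-miR-19b: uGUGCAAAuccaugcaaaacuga
The remaining pair, miR-92a of the first cluster and miR-25 of the second, share AUUGCAC:
mmu-miR-92a: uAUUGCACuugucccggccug
mmu-miR-25: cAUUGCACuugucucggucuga

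On GRCm38.p6 the 6 mature miRNAs of the first cluster lie within 813 bp at chr14:115043684-115044496 on the plus strand. The 3 of the second lie within 476 bp at chr5:138165332-138165807 on the minus strand, inside Mcm7. RefSeq places a second copy of miR-19b and of miR-92a on chromosome X, and an array signal cannot tell the copies apart.

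Of the 9 members, 7 were called detected on all 8 arrays, as were 113 of the 567 miRNAs. miR-18a was detected on 5 arrays, those of CCL4 at week 4, replicate 2 at week 6 and both replicates at week 8, and the olive oil array of week 8. miR-17, the name-giver of the first cluster, was detected on none. Its signal was 7.45 in CCL4 at week 4, -0.43 and 1.60 at week 6, and 1.66 and 0.49 at week 8, against 1.30, 0.07 and 0.34 in olive oil at weeks 4, 6 and 8. The single value above 2 was that of CCL4 at week 4, and no level or fold change is given for miR-17. Its probes were the shortest of the 9 members, 13 and 14 bases by the array's coordinates against 15 to 21 for the others, and 1 of them is also annotated to mmu-miR-106a. A missing detection call says only that these probes gave no signal above the background. This left 8 members among the 133 miRNAs tested, which were those detected on at least 3 arrays. miR-18a met this filter only through the CCL4 arrays, since 1 olive oil array detected it. Its tests below therefore lean on the group in which it was detected.

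Levels are signals divided by the 75th percentile of the 567 miRNAs on each array, on a log2 scale. That percentile lay between 4.71 and 6.48 on the olive oil arrays, below the lowest signal called detected on the same arrays (6.26 to 7.80), so it rests on miRNAs near the background. On this scale most miRNAs were lower in CCL4 mice: over all weeks 97 of the 133 (72.9%) lay below 0, and the median of the 113 detected on all arrays was -0.36. With the percentile taken over those 113, called here the detected-miRNA scale, the median was -0.16, and without any scaling it was 0.31. Directions are therefore given beside these medians, and differences between members of the same array are given wherever possible, because no whole-array factor can change them.

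Over all weeks the differences of the tested members ran from 0.20 to 1.09 without scaling, and from -0.47 to 0.42 on the first scale above, used below. Of the 8 tested, 7 lay below 0 and 1 above, the median was -0.22 beside -0.32 over all 133, and 1 member passed the test, miR-92a, which was lower. Called lower were 35.3% of all tested miRNAs, and called higher were 13.5%, so 1 of 8 is below the share in the background. No member was called higher by limma, and none did so by the methods' t-test after Benjamini-Hochberg adjustment. At an unadjusted p under 0.05 there was 1 member, miR-92a again, and the next lowest was miR-19b (0.0694, limma).

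miR-92a belongs to the first cluster and has the AUUGCAC seed printed above. Its log2 level was 5.11 in CCL4 at week 4, 4.99 and 5.12 at week 6, and 5.06 and 5.15 at week 8. In olive oil it was 5.51, 5.62 and 5.52 at weeks 4, 6 and 8. All 5 CCL4 arrays lay below all 3 olive oil arrays, and its spread within CCL4 was the smallest of the 8 tested members, at 5.09 ± 0.06 (SD, n = 5) and 5.55 ± 0.06 (SD, n = 3). The difference was -0.47 (SE 0.14, 95% interval -0.78 to -0.16, adjusted p = 0.0232, limma), or 0.724-fold. The exact two-sided permutation test over 56 splits gave p = 0.0357, the smallest this design allows. The call was lost on the detected-miRNA scale (adjusted p = 0.135, difference -0.27), with quantile normalization (0.139, -0.24) and with normexp background correction (0.917, -0.01), and the difference was 0.20 without scaling. Leaving out 1 array also ended it for CCL4 at week 4 (adjusted p = 0.110), CCL4 at week 8 replicate 1 (0.0769), olive oil at week 4 (0.110) and olive oil at week 6 (0.177). Against its own cluster miR-92a was lower in CCL4 in every week: its log2 signal minus the mean of miR-19a, miR-19b and miR-20a was lower on 5 of 5 CCL4 arrays than in the control of that week, on average by 0.20, 0.17 and 0.34 at weeks 4, 6 and 8. The groups overlapped on this quantity, which ran from 0.13 to 0.56 in CCL4 and from 0.35 to 0.655 in olive oil.

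miR-19b was the other member whose groups did not overlap. It stood at 6.05 in CCL4 at week 4, 5.69 and 6.04 at week 6, and 6.19 and 6.24 at week 8, against 6.44, 6.29 and 6.35 in olive oil. Every CCL4 array was thus below every olive oil array, as for 2 of the 8 members, a separation that 43.6% of all tested miRNAs showed. The difference was -0.31 (SE 0.15, adjusted p = 0.109, limma; exact permutation p = 0.0357), and its sign turned without scaling (0.36), with quantile normalization (0.04) and with normexp background correction (0.20).

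miR-19a, which differs from miR-19b at the 1 base given above, stood at 3.75 in CCL4 at week 4, 3.12 and 3.44 at week 6, and 3.77 and 3.65 at week 8, against 3.92, 3.54 and 3.71 in olive oil. The groups overlapped, and the difference of -0.14 (95% interval -0.48 to 0.19, adjusted p = 0.461, limma) became 0.06 on the detected-miRNA scale and 0.53 without scaling.

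miR-20a carries the seed of miR-17 and was the detected member of that seed in the first cluster. Its log2 level was 5.06 in CCL4 at week 4, 4.50 and 4.65 at week 6, and 4.83 and 5.01 at week 8, against 5.13, 5.06 and 5.02 in olive oil. Each CCL4 array lay below the olive oil array of its week, but the groups overlapped, and the difference was -0.23 (95% interval -0.57 to 0.11, adjusted p = 0.215, limma; exact permutation p = 0.107). It was -0.03 on the detected-miRNA scale and 0.44 without scaling.

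Among the 3 members of the miR-106b-25 cluster none passed. miR-106b stood at 4.16 in CCL4 at week 4, 3.94 and 4.11 at week 6, and 4.66 and 4.52 at week 8, against 4.72, 4.22 and 4.40 in olive oil. It lay below the control at weeks 4 and 6 and above it at week 8, so that the difference over all weeks was -0.15 (95% interval -0.52 to 0.22, adjusted p = 0.470, limma) and came to 0.00085 without either array of week 4. It was 0.05 on the detected-miRNA scale and 0.52 without scaling.

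miR-25, which shares its seed with miR-92a, stood at 3.48 in CCL4 at week 4, 3.33 and 3.37 at week 6, and 3.81 and 3.71 at week 8, against 4.08, 3.71 and 3.78 in olive oil. It was below the control on 4 of 5 CCL4 arrays, with a difference of -0.30 (95% interval -0.65 to 0.04, adjusted p = 0.115, limma) that was 0.37 without scaling. miR-93 stood at 3.27 in CCL4 at week 4, 2.79 and 2.90 at week 6, and 3.24 and 3.16 at week 8, against 3.40, 3.32 and 3.23 in olive oil. It too was below the control on 4 of 5 CCL4 arrays, with a difference of -0.22 (95% interval -0.55 to 0.11, adjusted p = 0.231, limma) that was 0.45 without scaling.

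**Figure D1:**
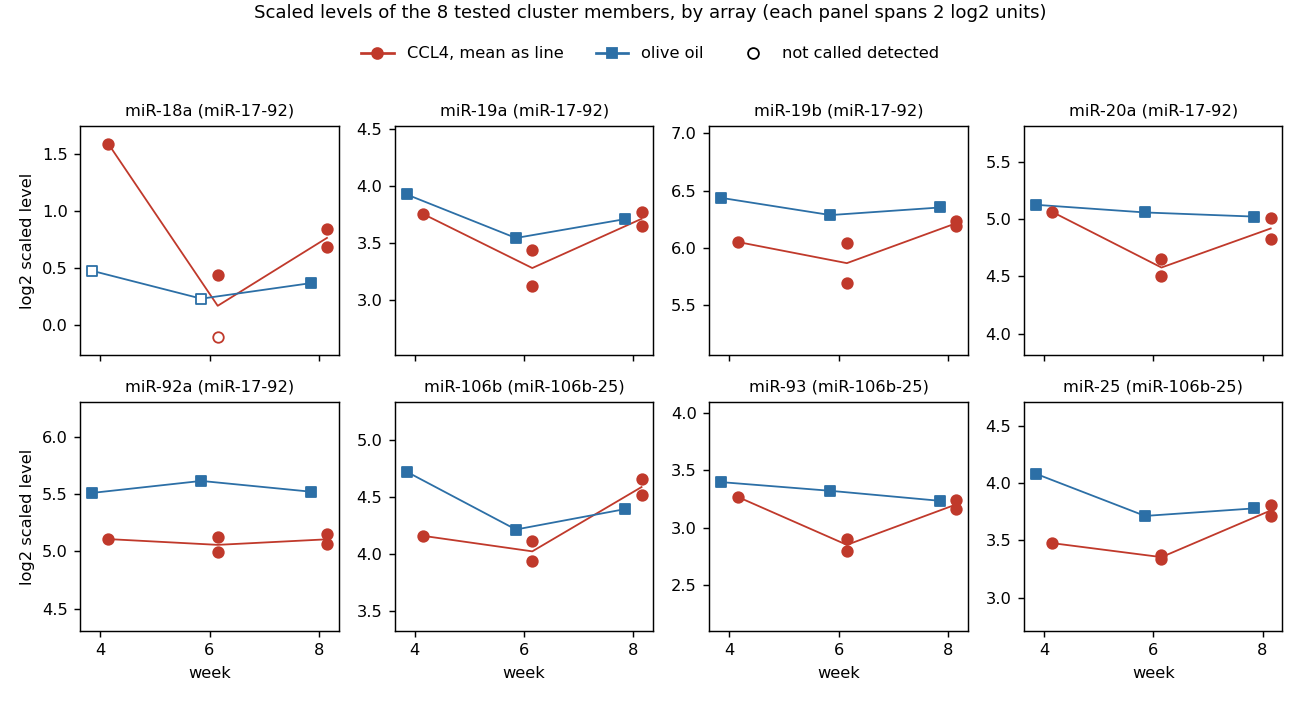
Log2 scaled level (y axis) of each tested member against week (x axis), with 1 point per array, CCL4 as red circles and olive oil as blue squares; lines join the means and open symbols mark arrays on which the member was not called detected. miR-92a lay between 4.99 and 5.15 in CCL4 and between 5.51 and 5.62 in olive oil, and miR-18a stood highest in CCL4 at week 4 (1.59).

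miR-18a was the exception among the tested members. Its log2 level was 1.59 in CCL4 at week 4, -0.10 and 0.44 at week 6, and 0.84 and 0.69 at week 8. In olive oil it was 0.48, 0.23 and 0.37 at weeks 4, 6 and 8. It was above the control on 4 of 5 CCL4 arrays, and CCL4 at week 6 replicate 1, where it was not detected, was the lowest of the 8. The difference over all weeks was 0.42 (SE 0.22, 95% interval -0.05 to 0.90, adjusted p = 0.115, limma; exact permutation p = 0.464). On the detected-miRNA scale it was 0.62 and passed (adjusted p = 0.0402, limma), where 15.8% of all tested miRNAs were called higher. Without scaling it was 1.09 and passed (0.00753, limma), where 25.6% were called higher. The median of the miRNAs detected on all arrays was itself 0.31 without scaling. With normexp background correction the difference of miR-18a was 0.10 (adjusted p = 0.337, limma).

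Set against its own cluster, the signal of miR-18a was higher on the CCL4 arrays, but not after normexp background correction. Its log2 signal minus the mean of miR-19a, miR-19b, miR-20a and miR-92a was -3.41 at week 4, -4.68 and -4.37 at week 6, and -4.12 and -4.32 at week 8 in CCL4, against -4.77, -4.89 and -4.78 in olive oil. Of these arrays CCL4 at week 6 replicate 1 and olive oil at weeks 4 and 6 did not detect miR-18a, so their values are no measured levels. With the lowest detected signal in its place, olive oil came to -4.77 and -4.71 at weeks 4 and 6. With normexp the CCL4 mean was lower than that of olive oil by 0.05 (-1.65 and -1.60), and 1 of 5 CCL4 arrays lay above the control of its week. The normexp setting added an offset of 50 to every spot before log2, which draws weak signals together. It therefore cannot decide whether the low signal of miR-18a rose. The difference from the cluster compares changes, not amounts, since probes of different miRNAs differ in brightness. The signals behind it were low. One probe of miR-18a ran from -0.01 to 8.01 over the 8 arrays and the other from 5.08 to 20.5. The first read 0.73, -0.01 and 1.11 on the olive oil arrays, too low for a fold change. The brighter probe alone had a difference of 0.22 over all weeks, beside 0.42 for the summed signal. On the 7 members detected on all arrays the 2 probes had the same sign for 7 of 7 and differed by 0.0011 to 0.0715.

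**Figure D2:**
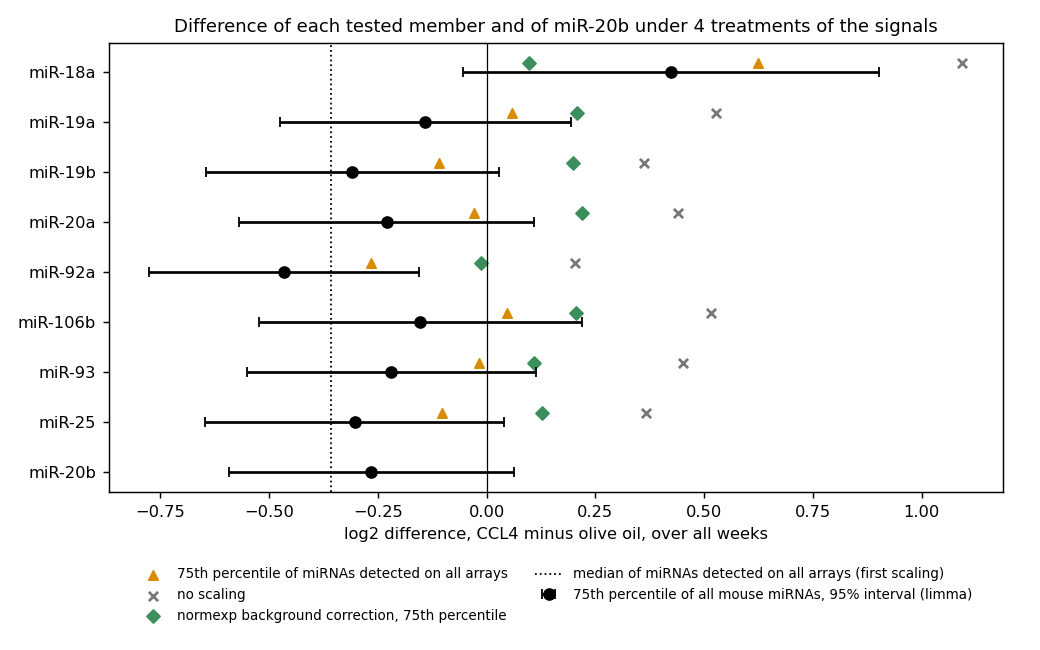
Log2 difference of CCL4 minus olive oil over all weeks (x axis) for each tested member and for miR-20b, with the 95% interval of limma for the main scale and the point estimates with another percentile, without scaling and with normexp background correction (the last 3 drawn for members only). The order of the members was the same under the first 3 scales, with miR-18a farthest to the right and miR-92a farthest to the left, and the position of 0 moved.

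Week by week, 1 member passed at week 4 and none at weeks 6 and 8. Each group had 1 array at week 4, and the spread comes from the CCL4 pairs of weeks 6 and 8, taken as the same for every miRNA. It is thus not the spread of miR-18a itself. The log2 levels of that member differed by 0.55 in the pair of week 6, the most of the 8 tested members, and by 0.15 in that of week 8. The member called by limma was miR-18a, in CCL4 2.15-fold above the lowest detected signal of the olive oil array. It was among the tested miRNAs only through its detection on CCL4 arrays, so this call is no independent support for a rise. The olive oil array did not detect miR-18a, so that lowest signal stands in for its level. It is no detection limit, and the fold is no lower bound. In CCL4 at week 6 replicate 1 miR-18a went undetected at 6.07, above the lowest detected signal there (5.91). At that week 12.0% of tested miRNAs were called higher and 33.1% lower. The CCL4 array of week 4 also had the most miRNAs detected, 158 against 117 to 145 on the others. The part of this in the result was not tested. With quantile normalization the member called at week 4 was miR-20a instead (0.36, adjusted p = 0.0496), and none was called with normexp background correction.

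Of the other members at week 4, miR-106b (-0.56) and miR-25 (-0.61) lay at the median of the 113 miRNAs detected on all arrays (-0.56). miR-20a (-0.06), miR-93 (-0.13) and miR-19a (-0.17) lay near 0, with miR-19b (-0.39) and miR-92a (-0.40) between. The standard error of each of these was 0.33 and none passed, while without CCL4 at week 6 replicate 1, or without replicate 2, miR-106b (adjusted p = 0.0253) and miR-25 (0.0160) passed as lower, as did 50.4% of all tested miRNAs.

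At week 6 the 7 members detected on all arrays were below 0, from -0.19 for miR-106b to -0.56 for miR-92a, with a median of -0.45 over the 113. miR-18a was not detected in olive oil at this week or in 1 of the 2 CCL4 arrays, and no fold is given. Of all tested miRNAs 6.02% were called higher and 3.01% lower at this week, and no member was by limma, with 1 at an unadjusted p under 0.05 (miR-92a, 0.0497). With CCL4 at week 6 replicate 2 left out, 4 members passed as lower: miR-19b, miR-20a, miR-92a and miR-93. That setting leaves 1 array per group at this week, and with it 54.9% of all tested miRNAs were called lower. At week 8 the members spread from -0.42 for miR-92a to 0.40 for miR-18a, with miR-106b at 0.19, miR-19a at 0.00 and the median of the 113 at -0.14. At this week 6.02% of all tested were called higher and 0.752% lower, and again no member by limma, with 0 at an unadjusted p under 0.05.

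The change of the treatment effect over the weeks was tested directly by the interaction of treatment and week. By limma it passed for 6.02% of all tested miRNAs and for no member, and 1 member had an unadjusted p under 0.05. That was miR-18a (0.0257, adjusted p = 0.201), which passed without CCL4 at week 6 replicate 2 (0.000602), where its lowest value was kept and the spread came from the pair of week 8 alone. The next was miR-106b (adjusted p = 0.657).

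**Figure D3:**
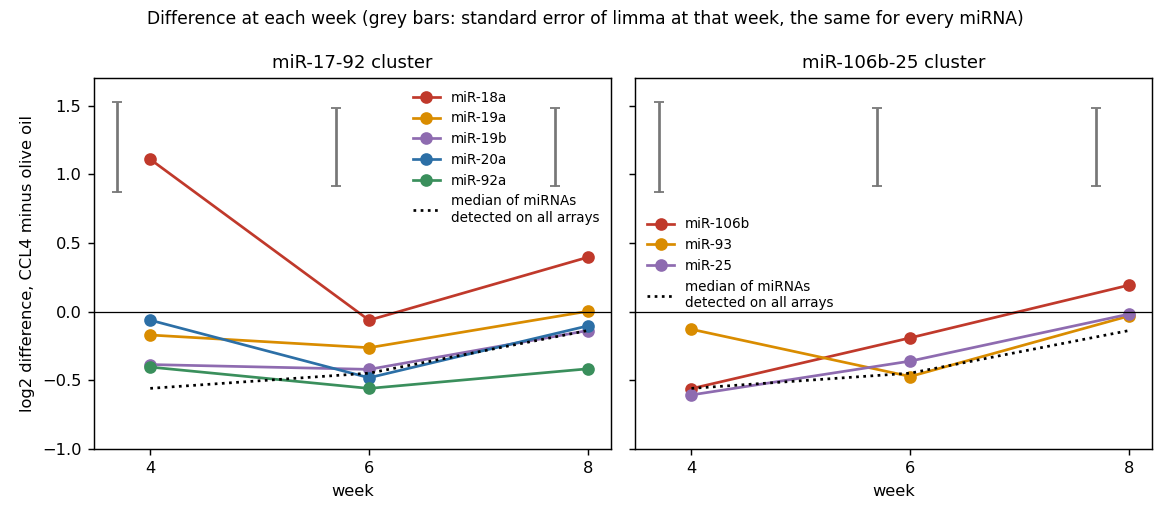
Log2 difference of CCL4 minus olive oil (y axis) at weeks 4, 6 and 8 (x axis) for the tested members of each cluster, with the median of the miRNAs detected on all arrays as a dotted line and the standard error of each week as grey bars. miR-18a was plotted at its fitted value of 1.11 at week 4, where olive oil did not detect it, as at week 6, and miR-106b ran from -0.56 at week 4 to 0.19 at week 8.

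The 2 clusters did not part over the treatment as wholes. The mean log2 signal of the 5 tested members of miR-17-92 minus that of the 3 members of miR-106b-25 was 0.40 ± 0.18 (SD, n = 5) in CCL4 and 0.34 ± 0.10 (SD, n = 3) in olive oil, a shift of 0.07 that is smaller than either spread. Over members detected on all arrays, which leaves out miR-18a, the shift was -0.06. By week it was 0.45, -0.02 and -0.10 with miR-18a, and 0.18, -0.09 and -0.21 without it. On the scaled values the median differences over all weeks were -0.23 for miR-17-92 and -0.22 for miR-106b-25.

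Grouped by seed, the 3 tested members with AAAGUGC ranged from -0.23 to -0.15, and the miR-19 pair from -0.31 to -0.14. In the AUUGCAC pair miR-92a was at -0.47 and miR-25 at -0.30. The single member with AAGGUGC, miR-18a, was at 0.42. These are descriptions over 1 to 3 members, with the sign changes under other scales as given above.

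Profiles over the 8 arrays were set side by side by the root mean square (RMS) difference of their centred log2 levels. The closest pair of members came from different clusters: miR-20a and miR-93, at 0.07. They share a seed and differ at 4 of 23 bases, 3 of which lie under the probes of miR-20a. miR-106b was closest to its neighbour miR-25 (0.11), and differed more from miR-20a (0.22) and miR-93 (0.19), which have its seed. miR-18a was the farthest from all other members, its closest being miR-19a at 0.38. Along the weeks miR-106b minus miR-93 was lower by 0.43 in CCL4 than in olive oil at week 4 and higher by 0.28 and 0.22 at weeks 6 and 8, which no single factor per array changes. Over all weeks miR-106b lay above miR-93 on the main scale (-0.15 and -0.22) and below it with quantile normalization (-0.06 and 0.07).

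The third paralogous cluster, miR-106a-363 on chromosome X, gave signal for 1 of its 4 members examined. mmu-miR-106a, miR-18b and miR-363 were detected on none of the 8 arrays. mmu-miR-20b was detected on all 8, and it followed miR-20a closely: the log2 signal of miR-20a minus that of miR-20b stayed between 1.45 and 1.61 over the 8 arrays, and their RMS difference was 0.05. Its sequence differs from that of miR-20a at U1C and U10C (position from the 5′ end, miR-20a first), and 1 of these lies under the probes of miR-20a:
mmu-miR-20b: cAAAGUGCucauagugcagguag
mmu-miR-106a: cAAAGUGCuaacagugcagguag
miR-106a, the second sequence, differs from miR-17 at U10A alone (miR-17 first), and the shorter probe of miR-17 does not reach that base. How much of the miR-20b signal comes from miR-20a on its probes was not tested. miR-20b itself had a difference of -0.26 over all weeks (SE 0.15, adjusted p = 0.143, limma), with each CCL4 array below the olive oil array of its week.

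Of the opposite strands of the members' hairpins, the array had those of 7 members, that of miR-92a being from the hairpin of its copy on chromosome X, and 1 of the 7 was detected. mmu-miR-17*, cut from the same hairpin as miR-17, gave signals of 17.5 in CCL4 at week 4, 5.80 and 6.77 at week 6, and 10.9 and 8.71 at week 8, against 4.15, 3.71 and 6.23 in olive oil. It was called detected in CCL4 at week 4 and in replicate 1 of week 8 only, and so was not tested. Scaled like the members its log2 level was 0.88 and -0.30 in CCL4 and olive oil at week 4, and -0.01 and 0.00 in CCL4 against -0.06 in olive oil at week 8:
mmu-miR-17*: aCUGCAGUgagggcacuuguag
Other miRNAs of the array with a member's seed were miR-32, miR-92b and miR-367, all with AUUGCAC. Of these miR-32 was detected on 1 array, and the others on none.

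Outside the clusters and their relatives, the 3 of 124 tested miRNAs whose profile was nearest to the mean of miR-17-92 were miR-21 (RMS 0.08), miR-23a (0.09) and miR-690 (0.11), beside a median of 0.35 over the 124. For miR-106b-25 they were miR-712 (0.11), miR-338-3p (0.12) and miR-16 (0.14), beside a median of 0.31.

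Markers of other cell types were read in the same whole-liver samples, in which fewer cells of a type and less RNA per cell cannot be told apart. The hepatocyte miRNA miR-122 was detected on all arrays and was lower in CCL4, with a summed level of 2041 to 3547 against 4630 to 5143. Its difference was -0.78 (adjusted p = 0.0118, limma) on the main scale and -0.58 (0.0232) on the detected-miRNA scale, but -0.11 (0.760) without scaling and -0.24 (0.358) with normexp. Of 5 tested mesenchymal miRNAs (of 6 listed) 4 were higher and none lower, with summed levels of 30.6 to 50.3 in CCL4 and 22.4 to 29.4 in olive oil, while 5 were higher without scaling and 2 with normexp. Of 4 tested leukocyte miRNAs (of 6 listed) 1 was lower and none higher, with summed levels of 50.1 to 145 against 72.2 to 107. The 2 endothelial miRNAs were not called (136 to 205 against 213 to 225), nor were the 3 erythroid ones (378 to 961 against 537 to 1225), and 1 of 2 tested epithelial miRNAs (of 5 listed) was higher (3.78 to 5.65 against 3.63 to 4.02). Their part in the members' values was not tested.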

How the data were processed

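Liver RNA was hybridised to 8 single-colour Agilent mouse miRNA arrays. The intensity values were deposited as Feature Extraction 10.5.1.1 output, per the file headers background-subtracted and summed over the probes of each miRNA, with no scaling between arrays; the authors' methods name another version of the software. The deposited log2 table equalled log2 of those intensities, set to at least 1, within 1.107e-06, and was used as an alternative.

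As in the authors' methods, each array was scaled to the 75th percentile of its 567 mouse miRNAs. Scaled signals under 0.01 were raised to 0.01 before log2 was taken; those methods state the floor before the division, which was run as an alternative. miRNAs detected on at least 3 arrays (133) were fitted with limma 3.58.1 in R 4.3.3, with week as a factor (4 residual degrees of freedom) or a mean per group for single weeks and the interaction (2 residual degrees of freedom, where limma gave every miRNA the same spread). Adjusted p is by Benjamini-Hochberg over all 133, with a threshold of 0.05. Exact two-sided permutation tests of 8 members used 56 splits of the arrays. The normexp alternative added an offset of 50 to every spot before log2, which shrinks differences between weak signals. The all-weeks limma fit was checked on simulated data with planted differences between CCL4 and olive oil. The single-week and interaction fits were run on these data without a check, and no interaction was planted.

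The members and lists were chosen with earlier results of these data known. The miRNAs named are the members, their X-linked paralogs, opposite strands and seed relatives, and the 3 with the nearest profile for each cluster. Coordinates and sequences are from RefSeq (GRCm38.p6); the array's own coordinates, on mm9, were used only for probe lengths and spacing. The number of arrays limits the precision.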

Additional observations from a re-analysis of the deposited data

Results flagged for a closer look

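In all 9 miRNAs were examined for an array that stood apart within the CCL4 group of 5. By the gap to the nearest neighbour divided by the range of the group none was flagged, but single arrays did lie apart. The undetected miR-17 read 7.45 at week 4 and at most 1.66 on the other CCL4 arrays. miR-19b had a log2 level of 5.69 in replicate 1 of week 6 and of 6.04 to 6.24 on the others. No member passed the test for a change of the treatment effect over the weeks. Outside the tested set, mmu-miR-17* and mmu-miR-32 had detection calls in CCL4 mice and on no olive oil array. How many of the 567 miRNAs did so was not counted. The CCL4 arrays had 121 to 158 miRNAs detected and the olive oil arrays 117 to 126. mmu-miR-17*, the opposite strand of the miR-17 hairpin, was detected in CCL4 at week 4 with a signal of 17.5 and in replicate 1 at week 8 with 10.9, against at most 6.23 in olive oil. These are unscaled signals, and on the scaled log2 level the second was -0.01 beside -0.06 in olive oil at week 8. mmu-miR-32, which has the seed of miR-92a, was detected in CCL4 at week 8 replicate 1 with a signal of 7.74.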

How the results depend on the processing

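The count of members called lower over all weeks, 1 on the main scale, was 0 on the detected-miRNA scale, without scaling, with quantile normalization, with normexp background correction and without a filter on detection, and 3 with the median of the miRNAs detected on all arrays as the scale, where 51.9% of all tested were lower. Members called higher were 0 on the main scale and 1 (miR-18a) on the detected-miRNA scale and without scaling, where 15.8% and 25.6% of all tested were higher. Leaving out each array in turn gave 0 to 1 members lower over all weeks, 1 to 3 at week 4, 0 to 4 at week 6 and 0 to 1 in the interaction. The 3 at week 4 came without either CCL4 array of week 6, and the 4 at week 6 and the 1 in the interaction without replicate 2 of that week. A single week had no value without its only array of a group. At week 4 none was called with normexp, without a filter or with miRNAs detected on all 8 arrays, which leaves miR-18a out. With the median as the scale 3 were called lower at week 6 and 1 at week 8. Of all tested miRNAs 45.9% and 21.8% were lower at these weeks on that scale.

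Without scaling every member below 0 turned above it: miR-19a 0.53, miR-19b 0.36, miR-20a 0.44, miR-92a 0.20, miR-106b 0.52, miR-93 0.45 and miR-25 0.37. With normexp the same held for miR-19a (0.21), miR-19b (0.20), miR-20a (0.22), miR-106b (0.21), miR-93 (0.11) and miR-25 (0.13). Quantile normalization turned miR-19b (0.0429), miR-20a (0.0316) and miR-93 (0.0721), and the detected-miRNA scale turned miR-19a (0.0587) and miR-106b (0.0476). With each array left out in turn miR-106b ran from -0.35 to 0.00085, the last without either array of week 4. Counts over all tested miRNAs (133, or 567 without a filter) that moved by over 1.5 times were 47 lower on the main scale against 10, 0, 18 and 0 on the detected-miRNA scale, no scaling, quantile normalization and normexp, 0 without a filter, 16 without the week term and 23 with the methods' t-test adjusted by Benjamini-Hochberg; 18 higher became 34 without scaling, 10 with normexp, 5 without a filter, 11 without the week term and 10 with that test. Leaving out each array in turn gave 5 to 60 lower and 8 to 14 higher. Causes were not tested.

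The labels give replicate numbers to the CCL4 pairs of weeks 6 and 8. The deviations of replicate 1 in these 2 pairs correlated at 0.0508. That gives no sign of a pairing by number, but 1 contrast per week cannot exclude it. The fit with a replicate block kept 1 member lower (miR-92a -0.50, adjusted p = 0.0291) and 0 higher, with 54 miRNAs lower and 12 higher of 133. The row of the slide as a covariate, chosen after seeing the data, gave the same values as leaving out CCL4 at week 6 replicate 2, the array it sets apart from its week, and is no separate check. A slide block was not run, since there was 1 slide.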
